A study of Mus musculus with 16 samples.

Results

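The Slc25 genes encode the mitochondrial carrier family, the transport proteins through which metabolites cross the inner mitochondrial membrane. The deposited table of mouse heart transcripts listed 48 symbols that begin with Slc25a, and 37 of them reached 1 TPM, the threshold of the selection, in at least 3 of 16 libraries. These 37 genes are described here, out of 11415 genes kept by the same threshold and 30153 in the table. The uncoupling proteins, which belong to the same family under Ucp names, were left out of the count; Ucp1, Ucp2 and Ucp3 are given with the partner genes.

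RNA of heart tissue came from 4 groups of mice, all labelled with the strain C57/BL6, and the design text says that the libraries come from separate animals. The Hap-I animals hold the human type 1 angiotensin receptor in its haplotype I form, which the title describes as overexpressed. Among Hap-I libraries, 5 are aged animals fed a western diet, 4 are aged animals with no diet stated, and 4 are adults for which the sample labels name a western diet. The other 3 are adult C57 animals with neither the haplotype nor the diet in their labels. They are called aged western-diet, aged, adult western-diet and C57 hearts below. The design text lists the adult Hap-I group without a diet, whereas its sample labels state one, and the sample labels were followed. The labels give no sex, age in months, number of transgenic lines or promoter of the human gene. No group holds adult Hap-I mice without the diet, so haplotype, age and diet cannot be told apart in a comparison with C57 hearts. Between aged hearts and adult western-diet hearts, age and, by the sample labels, diet differ together and cannot be told apart either.

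Carriers of this family are built from repeated pairs of membrane helices and mostly exchange one substrate for another. In the heart, which makes most of its ATP by oxidation, the ADP/ATP carriers export ATP and the phosphate carrier brings in the phosphate that ATP synthase needs. Other members move fuel (acylcarnitines, malate, aspartate, glutamate), nucleotides, cofactors such as NAD and coenzyme A, iron and glutathione.

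Levels are given as scaled TPM, meaning the deposited length-corrected abundances (TPM) divided by a size factor for each library (0.678 to 1.231). TPM keep no sequencing depth, so the depth is unknown and the errors are spreads between animals. Cardiomyocyte markers summed to 36488 to 52224 scaled TPM over the 16 libraries and were thus present in all of them. Summed atrial markers ranged from 86.2 to 199 scaled TPM in aged western-diet hearts, 97.2 to 5123 in aged hearts, 33.9 to 1173 in adult western-diet hearts and 230.2 to 6779 in C57 hearts. Aged replicates 1 and 3, adult western-diet replicates 1 and 4 and C57 replicates 1 and 3 were high in them. A minority of hearts lacked Y-linked transcripts, namely replicates 1 to 3 of the aged western-diet group and replicates 1 and 2 of the adult western-diet group, while 11 had them.

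The glutamate carrier Slc25a22 was higher in both western-diet groups than in the aged hearts and the C57 hearts, with no overlap of values. The pyrimidine nucleotide carriers moved in opposite directions in Hap-I hearts: Slc25a33 was lower than in C57 hearts in each of the 3 Hap-I groups, while Slc25a36 was higher over the Hap-I groups together. The NAD carrier Slc25a51, the coenzyme A carrier Slc25a42 and the iron carrier Slc25a37 were higher in aged western-diet hearts than in C57 hearts. Slc25a42 was also called higher in adult western-diet hearts than in C57 hearts, and neither of these calls of Slc25a42 held without C57 replicate 3. The 5 most abundant members, which carry ADP/ATP, phosphate, oxoglutarate and acylcarnitines, passed no pairwise test.

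A gene was called at a limma adjusted p under 0.05, with p-values adjusted over all 11415 genes. In aged western-diet against aged hearts 1 of the 37 members was called, Slc25a22, while 0.166% of all genes were called. Aged western-diet against adult western-diet hearts gave 0 members by limma, beside 2.39% of all genes; 9 members had an unadjusted p under 0.05, as did 19.7% of all genes, and the smallest adjusted p was 0.0558, for Slc25a3. Aged against adult western-diet hearts gave 1 member, Slc25a22 again, beside 2.14% of all genes. Aged against C57 hearts gave 1 member, Slc25a33, beside 11.2% of all genes (7.18% higher and 4.06% lower). For adult western-diet against C57 hearts the count was 5 members, 3 higher and 2 lower, or 13.5% of the family against 3.45% of all genes (1.95% higher and 1.5% lower). Aged western-diet against C57 hearts gave 9 members, 7 higher and 2 lower, or 24.3% of the family against 21.9% of all genes (12.3% higher and 9.57% lower). The mean of the 3 Hap-I groups against C57 gave 9, 6 higher and 3 lower, or 24.3% against 15.7% of all genes (9.42% higher and 6.31% lower). The comparisons with C57 share the same 3 control libraries.

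A moderated F test of any difference among the 4 groups called 10 members, 27% of the family, beside 18.3% of all genes. They were Slc25a22, Slc25a36, Slc25a37, Slc25a51, Slc25a33, Slc25a46, Slc25a29, Slc25a42, Slc25a34 and Slc25a3. The family's median log2 fold change was 0.071 in aged western-diet against aged hearts and 0.11 in aged western-diet against C57 hearts, beside 0.0027 and -0.0014 over all genes. In adult western-diet against C57 hearts it was 0.13, beside 0.0078 over all genes, with 30 members above 0 and 7 below. Without size factors these 3 medians were -0.11, 0.096 and -0.0092, beside -0.16, -0.026 and -0.13 over all genes.

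**Figure D1:**
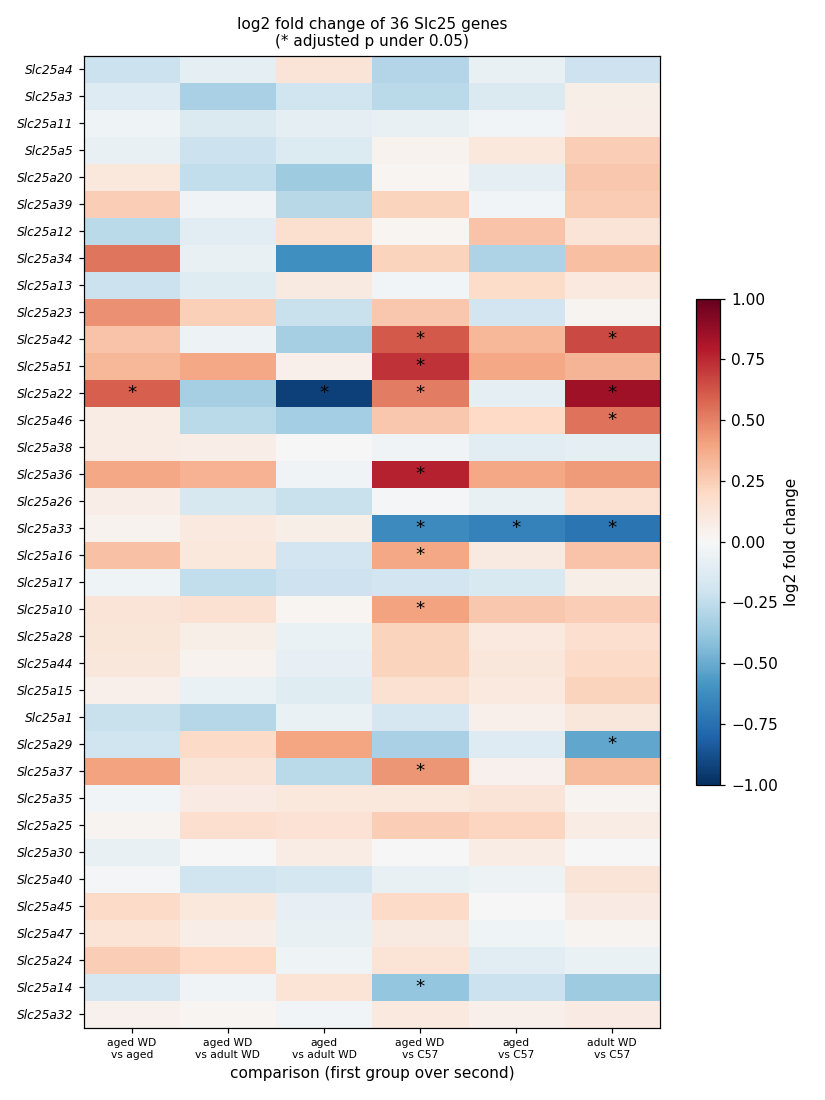
Log2 fold change of 36 of the 37 Slc25 genes (rows, by falling mean level) in 6 comparisons (columns, first group over second; WD, western diet), with asterisks at a limma adjusted p under 0.05. Slc25a22 is called in 4 columns and Slc25a33 in the 3 columns against C57, while no asterisk falls on the 10 genes of highest level.

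Some settings bear on nearly all of these calls. There were 26 called pairs of a member and a comparison, and 10 stayed called whichever library was left out. Leaving out C57 replicate 1 or C57 replicate 3 kept 11 of the 26 each. Without size factors 3 pairs stayed called, all of Slc25a33; a term for libraries without Y-linked transcripts kept 14, and a term for atrial markers kept 10. Calls over all genes were fewer too: in aged western-diet against C57 hearts 5.38% of all genes were called without size factors, 12.2% with the Y-linked term and 5.84% with the atrial term, against 21.9% as reported. The 11 libraries with Y-linked transcripts alone kept 5 pairs. The 10 libraries low in atrial markers, a set chosen after the values were seen, hold 1 C57 heart and kept 1 pair, Slc25a22 in aged against adult western-diet hearts. No called pair changed sign in any of these.

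Of 5 smooth muscle and pericyte markers, 1 was called in aged western-diet against aged hearts and 3 in aged western-diet against C57 hearts, Myh11, Kcnj8 and Tagln, all lower. These are 20% and 60% of the list, beside 0.0876% and 9.57% of all genes called lower. In adult western-diet against C57 hearts 2 were called lower, Kcnj8 and Myh11, or 40% beside 1.5% of all genes. Over the Hap-I groups together the same 3 were lower than in C57 hearts, or 60% beside 6.31%. None was called in aged against C57 hearts. Myh11, the smooth muscle myosin, was lower in aged western-diet than in aged hearts (log2 fold change -1.02 ± 0.17 SE, limma adjusted p = 0.0311) and than in C57 hearts (log2 fold change -1.50 ± 0.19 SE, limma adjusted p = 0.000273). The markers Acta2 and Rgs5 were not called in either comparison: Acta2 lay at 17.01 to 123 scaled TPM in aged western-diet hearts, 25.4 to 32.01 in aged hearts and 32.2 to 43.8 in C57 hearts, and Rgs5 at 102 to 157, 107 to 118 and 105 to 123 in the same groups. Summed smooth muscle and pericyte markers, whose groups overlapped, ranged from 133 to 240.7 scaled TPM in aged western-diet hearts, 161 to 172 in aged hearts, 143 to 189.9 in adult western-diet hearts and 178 to 185 in C57 hearts. Of 6 fibroblast markers 1, Dcn, was called lower in aged western-diet against C57 hearts, and 0 by limma in aged western-diet against aged hearts, where 0 had an unadjusted p under 0.05. Dcn is 16.7% of the list, beside 9.57% of all genes called lower. It was also called lower over the Hap-I groups together, beside 6.31% of all genes. Summed fibroblast markers ranged from 185 to 284 scaled TPM in aged western-diet hearts, 235 to 304 in aged hearts, 206 to 288 in adult western-diet hearts and 332 to 368 in C57 hearts. Of 6 atrial markers 4, Myl7, Myl4, Sln and Mybphl, were called lower in aged western-diet against C57 hearts. They are 66.7% of the list, beside 9.57% of all genes called lower, and the median log2 fold change of the 6 was -4.69. Nppa and Bmp10 were not called there, and no atrial marker was called in any other comparison. The part of these cell types in the carrier results was not tested. In RNA of bulk tissue, fewer cells of a type and less RNA per cell cannot be told apart.

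The family's transcripts were dominated by a few genes. Their scaled TPM summed to between 3619.8 and 4836 in the 16 libraries, and Slc25a4 alone made up 43.2% to 59.4% of the sum. Together with Slc25a3, Slc25a11, Slc25a5 and Slc25a20 it held 88% to 92.1%. The other members shared the rest, from Slc25a39 down to Slc25a32. The share of the 5 leading genes was 88.5% ± 0.485 in aged western-diet hearts (SD, n = 5), 90.6% ± 0.506 in aged hearts (n = 4), 89.5% ± 0.299 in adult western-diet hearts (n = 4) and 91.3% ± 0.666 in C57 hearts (n = 3). The aged western-diet hearts lay between 88% and 89.2% and the adult western-diet hearts between 89.1% and 89.8%. No value of either group reached the range of the aged hearts, 90% to 91.2%, or of the C57 hearts, 90.9% to 92.1%.

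**Figure D2:**
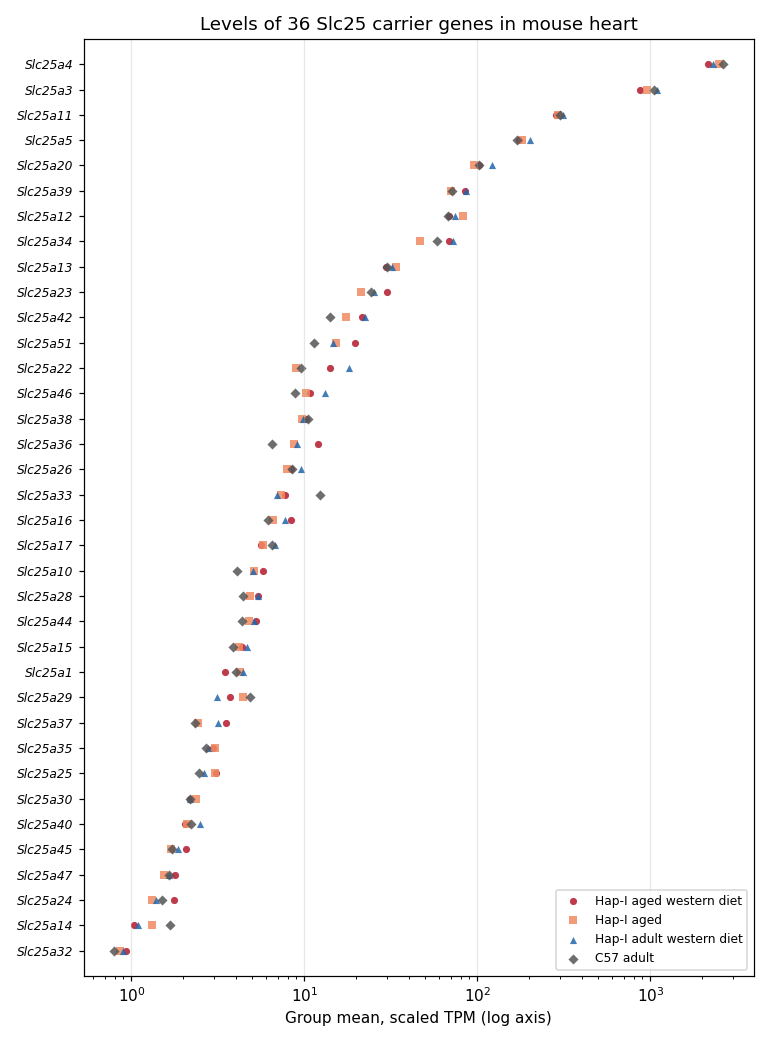
Mean scaled TPM (horizontal log axis) of 36 of the 37 Slc25 genes, by falling mean level, with 1 point for each of the 4 groups. Slc25a4 stands at the top with 43.2% to 59.4% of the family's sum, and Slc25a32 at the bottom near 1 TPM.

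At the threshold, Slc25a32, a folate carrier, reached 1 TPM in 5 libraries and Slc25a14, a relative of the uncoupling proteins, in 11. Just outside it, Slc25a27 reached 1 TPM in 1 library and Slc25a53 in 0, with unscaled levels of 0.354 to 1.18 TPM for Slc25a27 and 0.409 to 0.899 TPM for Slc25a53. The other 9 symbols left out reached at most 0.254 TPM in any library. Among them were Slc25a18, the second glutamate carrier (0 to 0.109 TPM), Slc25a31, the ADP/ATP carrier known from testis (0 to 0.174 TPM), and Slc25a21, the oxodicarboxylate carrier (0 to 0.192 TPM).

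Slc25a4, the ADP/ATP carrier of heart and skeletal muscle, lies on chr8:46206797-46211284, minus strand of GRCm38. In the aged western-diet hearts Slc25a4 read 2001, 2252, 2104, 2462 and 1942 scaled TPM, and in the aged hearts 2782, 2722, 2178 and 2341. The adult western-diet hearts gave 2288, 2667, 2554 and 1724 for Slc25a4, and the C57 hearts 2575, 2489.6 and 2833. All 5 aged western-diet values lay below the 3 C57 values, and the aged and adult western-diet groups overlapped both. The difference was not called (log2 fold change -0.29 ± 0.14 SE, limma adjusted p = 0.159).

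Slc25a5 encodes the ADP/ATP carrier of proliferating and many other cells. Slc25a5 was measured at 179, 183, 173, 181 and 151 scaled TPM in aged western-diet hearts and at 182, 195, 171 and 182 in aged hearts. Its values were 204, 199, 187 and 215 in adult western-diet hearts and 167, 165 and 175 in C57 hearts. The adult western-diet values lay above the C57 values and above the aged western-diet values, and neither difference was called (against C57, log2 fold change 0.25 ± 0.089 SE, limma adjusted p = 0.13). Of the 31-base words of its transcripts, 49.4% occur in other genes, among them Slc25a5-ps, so reads could be divided between them and its level is uncertain. The ratio of Slc25a4 to Slc25a5 was 11.2 to 13.6 in aged western-diet hearts, 12.8 to 15.3 in aged hearts, 8.03 to 13.7 in adult western-diet hearts and 15.1 to 16.2 in C57 hearts.

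Slc25a3, the phosphate carrier, was the second most abundant member. For Slc25a3, aged western-diet hearts held 836, 891, 897, 957 and 803 scaled TPM and aged hearts 943, 1015, 892 and 975. Adult western-diet hearts held 1096, 1035, 1069.9 and 1185 of Slc25a3 and C57 hearts 1019, 1134 and 1012. The aged western-diet values lay below all values of the adult western-diet and the C57 hearts, and all aged values lay below those of the adult western-diet hearts. The 4 groups differed (limma F test, adjusted p = 0.0466), but no pair of groups did at the threshold: aged western-diet against C57 hearts gave log2 fold change -0.27 ± 0.093 SE, limma adjusted p = 0.0506, and against adult western-diet hearts log2 fold change -0.32 ± 0.085 SE, limma adjusted p = 0.0558.

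**Figure D3:**
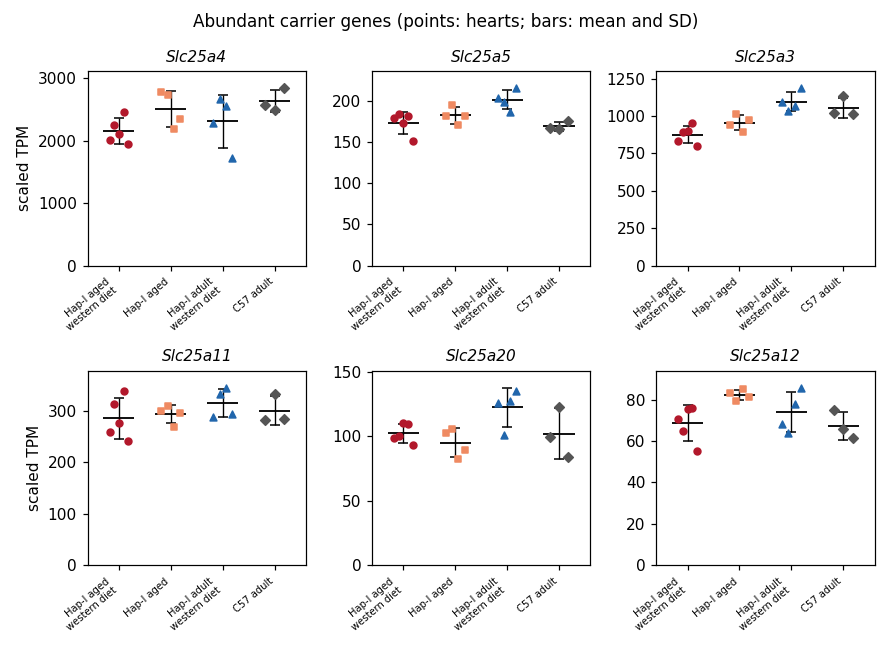
Scaled TPM of Slc25a4, Slc25a5, Slc25a3, Slc25a11, Slc25a20 and Slc25a12 in each heart (points) with group mean and SD (bars), each axis starting at 0. The aged western-diet points of Slc25a3 lie between 803 and 957, below all adult western-diet and C57 points.

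The ATP-Mg/phosphate carriers change the adenine nucleotide content of the matrix and are regulated by calcium. Slc25a23 had 22.7, 38.2, 31.1, 32.96 and 25.2 scaled TPM in the aged western-diet hearts and 22.7, 20.98, 22.5 and 18.96 in the aged hearts. It had 26.6, 28.7, 27.5 and 18.1 in the adult western-diet hearts, against 25.6, 25.5 and 22.05 in the C57 hearts. The 5 aged western-diet values of Slc25a23 started just above the highest aged value, and both other groups overlapped them. Its difference between aged western-diet and aged hearts missed the threshold (log2 fold change 0.46 ± 0.15 SE, limma adjusted p = 0.162). Slc25a24 and Slc25a25, of the same group, lay at 1.21 to 2.17 and 1.96 to 3.98 scaled TPM over all 16 hearts, and neither was called.

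Slc25a11, the oxoglutarate carrier, and the aspartate/glutamate carriers Slc25a12 and Slc25a13 move the intermediates of the malate-aspartate shuttle. In the aged western-diet hearts Slc25a11 read 258, 313, 275, 339 and 242 scaled TPM, and in the aged hearts 298, 309, 268 and 296. The adult western-diet hearts gave 288, 332, 343 and 294 for Slc25a11, and the C57 hearts 283, 332 and 284. The groups of Slc25a11 overlapped, and its log2 fold changes lay between -0.10 and 0.069 over the comparisons in which any member was called. That range leaves out aged western-diet against adult western-diet hearts, where its means were 285 and 314 scaled TPM and it was not called.

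Slc25a12 was measured at 70.8, 64.8, 75.6, 75.9 and 55.2 scaled TPM in aged western-diet hearts and at 83.2, 79.1, 85.01 and 81.3 in aged hearts. Its values were 68.2, 63.997, 77.7 and 85.5 in adult western-diet hearts and 74.8, 65.9 and 61.2 in C57 hearts. The 4 aged values of Slc25a12 lay close together, above all aged western-diet and all C57 values. This was not called against either group (aged western-diet against aged hearts, log2 fold change -0.27 ± 0.11 SE, limma adjusted p = 0.244; aged against C57 hearts, log2 fold change 0.29 ± 0.12 SE, limma adjusted p = 0.138). For Slc25a13, aged western-diet hearts held 35.6, 25.6, 33.4, 31.4 and 22.2 scaled TPM and aged hearts 34.1, 34.4, 31.5 and 35.99. Adult western-diet hearts held 28.7, 28.7, 31.7 and 39.6 of Slc25a13 and C57 hearts 27.1, 35.1 and 27.8. All 4 groups of Slc25a13 overlapped, and it was not called in any comparison.

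Slc25a22, a mitochondrial glutamate carrier, lies on chr7:141429744-141437892, minus strand of GRCm38, and its promoter is shown because the gene was the member called in most comparisons. Of 3 windows that RefSeq gives for it on GRCm38.p6, the one at chr7:141434545-141434844, minus strand, has the most annotated transcript starts within 50 bases, 4 of 25. Each window spans 250 bases before to 50 bases after a start. Capitals mark matches to searched motifs on either strand. The motif of ERR receptors was searched as AAGGTCA. The motif of GABP was searched as CCGGAAG and the E-box as CACGTG. The GC box was searched as GGGCGG. The CCAAT box was searched by those letters, and the cyclic AMP response element (CRE) as TGACGTCA. The palindromic NRF-1 motif was searched too and lay in 0 of the members' windows.
Slc25a22: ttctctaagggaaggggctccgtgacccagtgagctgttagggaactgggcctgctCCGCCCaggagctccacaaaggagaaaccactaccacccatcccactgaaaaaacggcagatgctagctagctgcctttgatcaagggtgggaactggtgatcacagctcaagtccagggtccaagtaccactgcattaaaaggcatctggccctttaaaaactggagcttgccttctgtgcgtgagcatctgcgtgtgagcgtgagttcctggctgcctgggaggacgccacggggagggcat
The single match was a GC box 194 bases upstream of the start. GC boxes occurred in 35.7% of 32851 promoter windows, in 62.7% of the windows of kept genes and in 33 of 37 windows of 29 members with an entry.

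Slc25a22 had 13.9, 14.8, 13.7, 15.7 and 12.3 scaled TPM in the aged western-diet hearts and 9.92, 8.73, 8.58 and 8.49 in the aged hearts. It had 21.5, 18.1, 19.02 and 13.9 in the adult western-diet hearts, against 9.604, 10.5 and 8.52 in the C57 hearts. Every western-diet value, aged or adult, lay above every aged and every C57 value. The mean was 14.1 ± 1.25 scaled TPM in aged western-diet hearts (SD, n = 5), 8.93 ± 0.668 in aged hearts (n = 4), 18.1 ± 3.19 in adult western-diet hearts (n = 4) and 9.55 ± 1.01 in C57 hearts (n = 3).

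Slc25a22 rose in aged western-diet hearts relative to aged hearts (log2 fold change 0.60 ± 0.11 SE, limma adjusted p = 0.041) and relative to C57 hearts (log2 fold change 0.51 ± 0.12 SE, limma adjusted p = 0.00743). It rose in adult western-diet hearts relative to C57 hearts (log2 fold change 0.85 ± 0.12 SE, limma adjusted p = 0.00227). That call held whichever library was left out. It was lost without scaling (limma adjusted p = 0.0739), when only the groups compared were fitted (0.057) and in the 11 libraries with Y-linked transcripts alone (0.0598). Over the Hap-I groups together Slc25a22 was higher than in C57 hearts (log2 fold change 0.42 ± 0.10 SE, limma adjusted p = 0.0132), a call lost without C57 replicate 1 or 3 and with a term for atrial markers (limma adjusted p = 0.0697). It was lower in aged than in adult western-diet hearts (log2 fold change -0.93 ± 0.11 SE, limma adjusted p = 0.000873), and aged and C57 hearts overlapped (log2 fold change -0.086 ± 0.12 SE, limma adjusted p = 0.687). The western-diet groups overlapped, since the lowest adult value fell among the aged western-diet ones, and did not differ at the threshold (log2 fold change -0.33 ± 0.11 SE, limma adjusted p = 0.103). Its shared 31-base words made up 0% of its sequence.

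The rise of Slc25a22 in aged western-diet over aged hearts was the least stable of its calls. It was called in 6 of 16 fits that left out 1 library, with log2 fold changes of 0.56 to 0.64 and adjusted p up to 0.138; it was lost without any 1 of the 4 aged hearts, without aged western-diet replicate 1, 2, 3 or 4, without adult western-diet replicate 3 and without C57 replicate 1. It was also lost with a term for libraries without Y-linked transcripts (limma adjusted p = 0.113) and with a term for atrial markers (0.105), which also ended the call in aged western-diet against C57 hearts (0.0706). The difference between aged hearts, with no diet stated, and adult western-diet hearts held in all 16 (-1.05 to -0.85). It also held with both terms (limma adjusted p = 0.00822 and 0.00222). It was lost without scaling (0.0678) and in the 11 libraries with Y-linked transcripts alone. Age and diet differ together in it. The ratio of Slc25a22 to Slc25a12, which no scaling can change, was 0.181 to 0.228 in aged western-diet hearts and 0.101 to 0.119 in aged hearts. It was 0.162 to 0.316 in adult western-diet hearts and 0.128 to 0.16 in C57 hearts. Slc25a12 itself lay higher in aged hearts (79.1 to 85.01 scaled TPM) than in aged western-diet hearts (55.2 to 75.9). Part of the ratio's gap between these groups therefore comes from Slc25a12, and the ratio is given without a test.

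**Figure D4:**
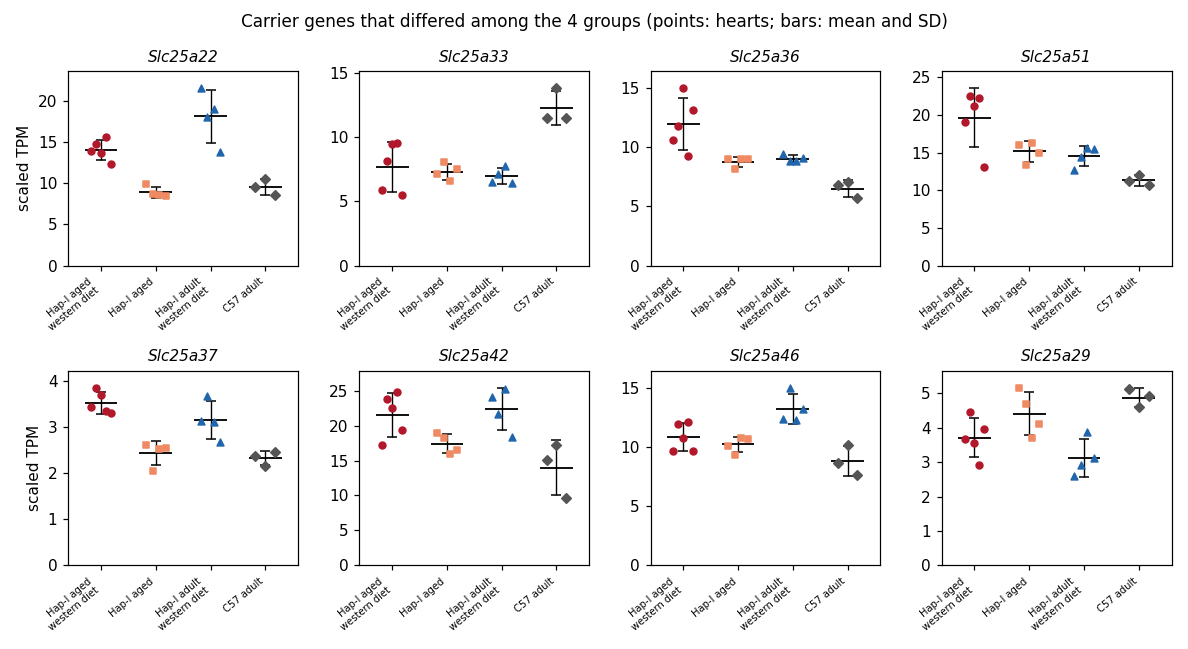
Scaled TPM of the 8 members called both by the F test and in at least 1 pairwise comparison, in each heart (points) with group mean and SD (bars), each axis starting at 0. All Slc25a22 points of the western-diet groups lie above all points of the aged and C57 hearts.

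Among the other carriers of carboxylates, Slc25a10, the dicarboxylate carrier, was called in 1 comparison. In the aged western-diet hearts Slc25a10 read 4.92, 6.47, 4.999, 6.95 and 5.36 scaled TPM, and in the aged hearts 5.504, 5.47, 5.17 and 4.34. The adult western-diet hearts gave 4.85, 5.895, 5.61 and 3.95 for Slc25a10, and the C57 hearts 4.37, 3.58 and 4.29. All aged western-diet values lay above the C57 values, and the remaining groups overlapped them. Slc25a10 rose in aged western-diet relative to C57 hearts (log2 fold change 0.40 ± 0.13 SE, limma adjusted p = 0.0343); this was lost without aged western-diet replicate 2 or 4 or any 1 C57 heart, with adjusted p up to 0.13. It was also lost with either added term (limma adjusted p = 0.0893 with a term for libraries without Y-linked transcripts and 0.144 with one for atrial markers). Slc25a1, the citrate carrier, lay at 3.05 to 5.26 scaled TPM and was not called.

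Slc25a20 exchanges acylcarnitines for carnitine and so admits long-chain fatty acids to oxidation. Slc25a20 was measured at 98.5, 100.4, 110.2, 109 and 93.04 scaled TPM in aged western-diet hearts and at 102, 106, 82.3 and 89.7 in aged hearts. Its values were 126, 101, 127 and 135 in adult western-diet hearts and 99.4, 123 and 83.6 in C57 hearts. Adult western-diet replicates 1, 3 and 4 held the highest values, and every pair of groups overlapped. No comparison was called; aged against adult western-diet hearts gave a difference below the threshold (log2 fold change -0.36 ± 0.13 SE, limma adjusted p = 0.127).

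Slc25a29 carries basic amino acids and was first described as a carnitine carrier relative. For Slc25a29, aged western-diet hearts held 3.66, 4.45, 3.56, 2.93 and 3.95 scaled TPM and aged hearts 5.15, 4.68, 3.71 and 4.101. Adult western-diet hearts held 2.59, 2.93, 3.88 and 3.12 of Slc25a29 and C57 hearts 5.11, 4.59 and 4.92. The values of both western-diet groups lay below all C57 values, and the aged hearts overlapped the C57 hearts. Slc25a29 fell in adult western-diet hearts relative to C57 hearts (log2 fold change -0.52 ± 0.12 SE, limma adjusted p = 0.0352) and over the Hap-I groups together (log2 fold change -0.32 ± 0.10 SE, limma adjusted p = 0.0477); aged western-diet against C57 hearts missed the threshold (log2 fold change -0.33 ± 0.12 SE, limma adjusted p = 0.0616). The call in adult western-diet hearts was lost without C57 replicate 1 or 3 or adult western-diet replicate 1 or 2, and with a term for libraries without Y-linked transcripts (limma adjusted p = 0.0988) or for atrial markers (0.0603). The call over the Hap-I groups was kept in 5 of 16 fits that left out 1 library and was lost with the same terms (0.101 and 0.0724).

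Slc25a33 and Slc25a36 both carry pyrimidine nucleotides, which mitochondria need to make their own DNA and RNA. Slc25a33 lies on chr4:149744036-149774277, minus strand, and Slc25a36 on chr9:97074961-97111157, minus strand, of GRCm38. Their RefSeq promoter windows (GRCm38.p6, chr4:149774218-149774517 and chr9:97110992-97111291, both minus strand) are shown because the pair moved in opposite directions, with the same motifs in capitals.
Slc25a33: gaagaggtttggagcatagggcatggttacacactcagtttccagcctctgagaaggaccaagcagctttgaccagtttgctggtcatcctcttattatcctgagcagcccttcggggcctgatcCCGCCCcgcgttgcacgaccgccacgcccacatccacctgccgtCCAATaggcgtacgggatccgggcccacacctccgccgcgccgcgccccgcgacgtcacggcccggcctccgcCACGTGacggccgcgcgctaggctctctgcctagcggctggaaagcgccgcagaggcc
Slc25a36: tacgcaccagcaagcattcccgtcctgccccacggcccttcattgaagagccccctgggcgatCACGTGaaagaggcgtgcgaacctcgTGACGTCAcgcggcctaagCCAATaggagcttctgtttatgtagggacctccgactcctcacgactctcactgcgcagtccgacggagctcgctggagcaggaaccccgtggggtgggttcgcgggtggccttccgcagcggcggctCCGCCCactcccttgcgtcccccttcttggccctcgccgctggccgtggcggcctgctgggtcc
The Slc25a33 window holds a GC box 125, a CCAAT box 81 and an E-box 8 bases upstream of the start. The Slc25a36 window holds an E-box 187, a CRE 161, a CCAAT box 142 and a GC box 14 bases upstream. E-boxes occurred in 7.15% of all windows, 9.89% of the windows of kept genes and 7 of the 37 windows of members, and CREs in 1.79%, 2.86% and 2 of 37. CCAAT boxes occurred in 37.4% of all windows, 37.2% of those of kept genes and 20 of the 37 of members. Matches in the printed windows do not overlap each other.

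Slc25a33 had 5.87, 8.0998, 9.48, 9.52 and 5.46 scaled TPM in the aged western-diet hearts and 7.09, 8.03, 6.56 and 7.52 in the aged hearts. It had 6.495, 7.14, 7.73 and 6.45 in the adult western-diet hearts, against 11.5, 13.8 and 11.5 in the C57 hearts. The lowest C57 value was above the highest of the Hap-I values. Slc25a33 fell in aged western-diet hearts (log2 fold change -0.63 ± 0.15 SE, limma adjusted p = 0.00831), in aged hearts (log2 fold change -0.67 ± 0.16 SE, limma adjusted p = 0.0152) and in adult western-diet hearts (log2 fold change -0.73 ± 0.16 SE, limma adjusted p = 0.0199), each relative to C57 hearts. Over the Hap-I groups together the log2 fold change was -0.68 ± 0.13 SE (limma adjusted p = 0.004). That difference kept its call without any 1 library (-0.72 to -0.60), without scaling (limma adjusted p = 0.0318), and with a term for libraries without Y-linked transcripts (0.0105) or for atrial markers (0.0148). The call in adult western-diet hearts was lost without any 1 C57 heart and with the Y-linked term (0.0571). In aged western-diet hearts it was lost when only the groups compared were fitted (0.0525), and in aged hearts without scaling (0.167). Of the 31-base words of Slc25a33, 13.5% occur in Gm13068.

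In the aged western-diet hearts Slc25a36 read 10.6, 11.8, 14.9, 9.22 and 13.1 scaled TPM, and in the aged hearts 8.97, 8.12, 8.96 and 9.03. The adult western-diet hearts gave 9.404, 8.85, 8.802 and 9.04 for Slc25a36, and the C57 hearts 6.78, 7.06 and 5.66. Every Hap-I value was above every C57 value, and aged western-diet hearts were above aged hearts without overlap. Slc25a36 rose in aged western-diet hearts relative to C57 hearts (log2 fold change 0.77 ± 0.12 SE, limma adjusted p = 0.00064) and over the Hap-I groups together (log2 fold change 0.53 ± 0.10 SE, limma adjusted p = 0.00435). Aged hearts (log2 fold change 0.38 ± 0.12 SE, limma adjusted p = 0.0547) and adult western-diet hearts (log2 fold change 0.42 ± 0.12 SE, limma adjusted p = 0.0674), each against C57, missed the threshold, as did aged western-diet against aged hearts (log2 fold change 0.39 ± 0.11 SE, limma adjusted p = 0.107). Both calls held without any 1 library and with either added term, and were lost without scaling (limma adjusted p = 0.0523 and 0.153). Of its 31-base words, 7.78% occur in other genes.

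Since the pair moved apart, their ratio separated Hap-I from C57 hearts. Slc25a36 over Slc25a33 was 0.968 to 2.4 in aged western-diet hearts, 1.01 to 1.37 in aged hearts, 1.14 to 1.45 in adult western-diet hearts and 0.494 to 0.591 in C57 hearts. Scaling cannot change this ratio. It was formed after the values were seen and is given without a test.

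**Figure D5:**
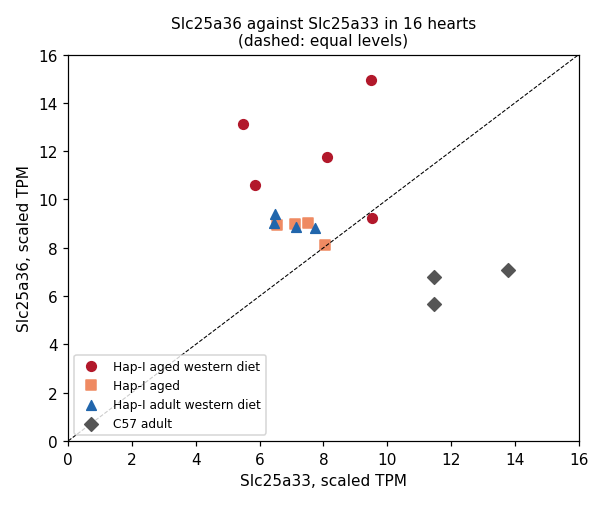
Scaled TPM of Slc25a36 (vertical axis) against Slc25a33 (horizontal axis) in the 16 hearts, marked by group, with a dashed line of equal levels. The C57 hearts lie low and to the right, at ratios of 0.494 to 0.591, and the Hap-I hearts at ratios of 0.968 to 2.4.

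Slc25a51 imports NAD into mitochondria and lies on chr4:45395923-45408766, minus strand of GRCm38. Slc25a51 was measured at 19.1, 22.5, 21.2, 22.3 and 13.1 scaled TPM in aged western-diet hearts and at 15.96, 13.3, 16.3 and 14.99 in aged hearts. Its values were 12.7, 14.4, 15.6 and 15.5 in adult western-diet hearts and 11.2, 12.04 and 10.7 in C57 hearts. All Hap-I values lay above the C57 values; aged western-diet replicate 5, at 13.1, fell among the other Hap-I groups while the others of its group lay higher. Slc25a51 rose in aged western-diet hearts relative to C57 hearts (log2 fold change 0.72 ± 0.14 SE, limma adjusted p = 0.00294), in every fit that left out 1 library. Over the Hap-I groups together (log2 fold change 0.48 ± 0.12 SE, limma adjusted p = 0.0164) the call was lost without C57 replicate 1 or 3 and with a term for atrial markers (limma adjusted p = 0.0666). Aged hearts and adult western-diet hearts, each against C57, missed the threshold (log2 fold change 0.39 ± 0.15 SE, limma adjusted p = 0.0975; log2 fold change 0.34 ± 0.15 SE, limma adjusted p = 0.211).

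Slc25a42 imports coenzyme A in exchange for adenine nucleotides and lies on chr8:70184340-70212305, minus strand of GRCm38. Its RefSeq promoter window (GRCm38.p6, chr8:70212232-70212531, minus strand) is shown because it holds 5 CCAAT boxes, in capitals with a GC box.
Slc25a42: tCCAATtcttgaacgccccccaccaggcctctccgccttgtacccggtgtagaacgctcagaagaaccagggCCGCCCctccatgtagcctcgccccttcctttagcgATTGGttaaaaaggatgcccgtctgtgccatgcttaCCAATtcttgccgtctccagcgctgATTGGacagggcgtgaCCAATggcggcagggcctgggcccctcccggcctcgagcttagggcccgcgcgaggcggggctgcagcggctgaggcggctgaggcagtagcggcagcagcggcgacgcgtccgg
The CCAAT boxes lie 249, 142, 106, 81 and 65 bases upstream of the start and the GC box 178 bases upstream. For Slc25a42, aged western-diet hearts held 17.2, 23.8, 22.5, 24.9 and 19.4 scaled TPM and aged hearts 18.97, 18.2, 15.98 and 16.5. Adult western-diet hearts held 24.04, 21.7, 25.2 and 18.4 of Slc25a42 and C57 hearts 15.1, 17.2 and 9.67. C57 replicate 3 was the lowest of all 16 hearts, and C57 replicate 2 overlapped the aged western-diet and aged groups. Slc25a42 rose in aged western-diet hearts (log2 fold change 0.61 ± 0.16 SE, limma adjusted p = 0.0143) and in adult western-diet hearts (log2 fold change 0.66 ± 0.17 SE, limma adjusted p = 0.0413), each relative to C57 hearts. Without C57 replicate 3 the first was no longer called (log2 fold change 0.39, limma adjusted p = 0.0951), and a term for atrial markers also ended it (0.156). The second was called in 6 of 16 fits that left out 1 library and was lost with either added term (limma adjusted p = 0.103 for Y-linked transcripts and 0.147 for atrial markers). Over the Hap-I groups together Slc25a42 was higher than in C57 hearts (log2 fold change 0.54 ± 0.14 SE, limma adjusted p = 0.019), a call lost without C57 replicate 1, without C57 replicate 3 (log2 fold change 0.31) and with a term for atrial markers (limma adjusted p = 0.119).

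Slc25a16, whose yeast relative is needed for mitochondrial coenzyme A, was called in 1 comparison. Slc25a16 had 7.97, 9.73, 7.71, 9.56 and 6.96 scaled TPM in the aged western-diet hearts and 6.75, 5.86, 6.73 and 7.16 in the aged hearts. It had 7.36, 8.87, 7.78 and 6.82 in the adult western-diet hearts, against 6.43, 7.14 and 5.02 in the C57 hearts. The aged western-diet hearts overlapped the C57 hearts only at the lowest aged western-diet and the highest C57 value. Slc25a16 rose in aged western-diet relative to C57 hearts (log2 fold change 0.39 ± 0.12 SE, limma adjusted p = 0.0328); without C57 replicate 1 or 3 or aged western-diet replicate 2 or 4 the call was lost, and the log2 fold change ranged from 0.26 to 0.48. Either added term ended it (limma adjusted p = 0.128 with a term for libraries without Y-linked transcripts and 0.237 with one for atrial markers). Slc25a26, the S-adenosylmethionine carrier, Slc25a17, the peroxisomal coenzyme A carrier, and Slc25a32 were not called in any comparison.

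Slc25a37 and Slc25a28 are the mitoferrins, which carry iron into mitochondria for heme and iron-sulfur clusters. In the aged western-diet hearts Slc25a37 read 3.43, 3.84, 3.702, 3.35 and 3.304 scaled TPM, and in the aged hearts 2.61, 2.04, 2.52 and 2.54. The adult western-diet hearts gave 3.14, 3.68, 3.103 and 2.68 for Slc25a37, and the C57 hearts 2.36, 2.15 and 2.46. The aged western-diet values lay above all aged and all C57 values, and the adult western-diet values also lay above both of these groups. Slc25a37 rose in aged western-diet hearts relative to C57 hearts (log2 fold change 0.44 ± 0.089 SE, limma adjusted p = 0.00368), in every fit that left out 1 library, and over the Hap-I groups together (log2 fold change 0.27 ± 0.078 SE, limma adjusted p = 0.0316), a call that was lost without any 1 C57 heart or aged replicate 4 and with either added term (0.0941 for Y-linked transcripts and 0.102 for atrial markers). Aged western-diet against aged hearts missed the threshold (log2 fold change 0.40 ± 0.082 SE, limma adjusted p = 0.0525). Slc25a28 had 4.34, 5.54, 5.54, 6.69 and 4.91 scaled TPM in aged western-diet hearts and 4.51, 4.45 and 4.38 in C57 hearts, overlapping, and was not called.

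Slc25a37 is known from red cell precursors, so erythroid markers are given beside it. Their sum ranged from 1792 to 7723 scaled TPM in aged western-diet hearts, 2296 to 4013 in aged hearts, 2176 to 8449.8 in adult western-diet hearts and 2692 to 4687 in C57 hearts. None of the 5 erythroid markers was called in any of the 7 comparisons by limma, and the ranges overlapped. In aged western-diet against aged hearts 3 of the 5 had an unadjusted limma p under 0.05, as did 15.9% of all genes. The median log2 fold change of the 5 markers there was 0.88. Their part in the Slc25a37 result was not tested.

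Slc25a39, which imports glutathione, was next in level after the 5 leading genes. Slc25a39 was measured at 71.9, 99.3, 82.7, 106 and 64.7 scaled TPM in aged western-diet hearts and at 74.02, 74.2, 63.9 and 69.6 in aged hearts. Its values were 78.7, 106, 88.8 and 72.4 in adult western-diet hearts and 74.05, 67.2 and 73.8 in C57 hearts. The highest values were those of aged western-diet replicates 2 and 4 and adult western-diet replicate 2, all groups overlapped, and no comparison was called. Slc25a40, of the same function, lay at 1.75 to 2.67 scaled TPM and was not called.

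Slc25a46 sits in the outer membrane and takes part in mitochondrial fusion and shape rather than in transport. For Slc25a46, aged western-diet hearts held 9.68, 11.9, 10.7, 12.1 and 9.66 scaled TPM and aged hearts 10.1, 9.36, 10.8 and 10.7. Adult western-diet hearts held 12.4, 14.98, 12.3 and 13.2 of Slc25a46 and C57 hearts 8.66, 10.2 and 7.61. The adult western-diet values were above those of every other group without overlap. Slc25a46 rose in adult western-diet relative to C57 hearts (log2 fold change 0.54 ± 0.11 SE, limma adjusted p = 0.0152) and over the Hap-I groups together (log2 fold change 0.34 ± 0.091 SE, limma adjusted p = 0.022). Both calls were lost without C57 replicate 1 or 3 and with a term for libraries without Y-linked transcripts (limma adjusted p = 0.0552 and 0.056) or for atrial markers (0.0653 and 0.113). The difference between aged and adult western-diet hearts was not called (log2 fold change -0.34 ± 0.10 SE, limma adjusted p = 0.0832).

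Slc25a34 has no transported substance assigned here and was among the 10 most abundant members. Slc25a34 had 58.8, 76.4, 73.6, 78.4 and 53.95 scaled TPM in the aged western-diet hearts and 52.9, 50.5, 38.4 and 44.3 in the aged hearts. It had 71.5, 82.3, 79.7 and 54.4 in the adult western-diet hearts, against 53.3, 70.1 and 51.1 in the C57 hearts. The aged hearts lay below all aged western-diet and all adult western-diet values and overlapped the C57 hearts. The 4 groups differed (limma F test, adjusted p = 0.039), while the pairs missed the threshold (aged western-diet against aged, log2 fold change 0.54 ± 0.15 SE, limma adjusted p = 0.116; aged against adult western-diet, log2 fold change -0.61 ± 0.16 SE, limma adjusted p = 0.0581). Its neighbour in name, Slc25a35, lay at 2.26 to 3.76 scaled TPM, was not called, and has 27.5% of its 31-base words in common with other genes, among them Rangrf.

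Slc25a14, a relative of the uncoupling proteins, was close to the threshold of selection. In the aged western-diet hearts Slc25a14 read 0.886, 1.12, 0.904, 1.22 and 1.06 scaled TPM, and in the aged hearts 0.987, 1.27, 1.14 and 1.85. The adult western-diet hearts gave 0.932, 1.27, 0.947 and 1.21 for Slc25a14, and the C57 hearts 1.67, 1.52 and 1.801. Aged western-diet and adult western-diet values lay below all C57 values, and aged replicate 4, at 1.85, above them. Slc25a14 fell in aged western-diet relative to C57 hearts (log2 fold change -0.39 ± 0.11 SE, limma adjusted p = 0.0249) and over the Hap-I groups together (log2 fold change -0.32 ± 0.10 SE, limma adjusted p = 0.0407). The first was lost without C57 replicate 1 or 3 or aged western-diet replicate 3, and the second was kept in 6 of 16 fits that left out 1 library. Both were lost with a Y-linked term (limma adjusted p = 0.0977 and 0.097) and with an atrial term (0.0744 and 0.0799). Slc25a30, its relative, lay at 1.77 to 2.79 scaled TPM and was not called.

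Slc25a22 and Slc25a29, which also carry amino acids, were called as described, whereas Slc25a38, Slc25a44, Slc25a15 and Slc25a45 were not called in any of the 7 comparisons by limma. Slc25a38, the glycine carrier, lay at 8.18 to 11.6 scaled TPM over the 16 hearts, Slc25a44, the branched-chain amino acid carrier, at 4.19 to 5.67, and Slc25a15, the ornithine carrier, at 3.39 to 4.93. Slc25a45 ranged from 1.28 to 2.37 scaled TPM. Slc25a47, a gene known from liver that was also not called, ranged from 0.989 to 2.41 scaled TPM.

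Whether the scaled values of 2 groups overlapped was also counted. In aged western-diet against aged hearts 6 of 37 members did not overlap, or 16.2%, beside 7.14% of all genes, and in adult western-diet against C57 hearts 10 members, or 27%, beside 18%. In aged western-diet against C57 hearts 11 members did not overlap, or 29.7%, beside 23.4%, and in aged against C57 hearts 7, or 18.9%, beside 34.1%. Aged western-diet against adult western-diet hearts gave 4 members, or 10.8%, beside 6.31%, and aged against adult western-diet hearts 7 beside 16%. All Hap-I hearts together were apart from the C57 hearts in 3 members, Slc25a33, Slc25a36 and Slc25a51, or 8.11%, beside 7.75% of all genes.

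The carriers reach the inner membrane through the TIM22 import pathway. None of 14 import genes tested was called in any of the 7 comparisons by limma (0 had an unadjusted p under 0.05 in aged western-diet against C57 hearts and 1 in adult western-diet against C57 hearts), and their median log2 fold change in aged western-diet against C57 hearts was -0.056, beside -0.0014 over all genes. Of 18 transcription factors and coactivators of mitochondrial genes tested, 6 were higher in aged western-diet than in C57 hearts and 0 lower, 4 were higher in aged hearts and 1 in adult western-diet hearts, each against C57. These are 33.3%, 22.2% and 5.56% of the list, beside 12.3%, 7.18% and 1.95% of all genes called higher. Their median log2 fold change was 0.30 in aged western-diet, 0.15 in aged and 0.16 in adult western-diet hearts against C57. Unlike calls of members, calls of these and the other partner genes were not examined under the alternative settings or with a library left out. Over all genes, the share called in aged against C57 hearts went from 11.2% to 3.43% without C57 replicate 1.

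Ppargc1b was measured at 2.77, 3.91, 4.09, 3.33 and 2.58 scaled TPM in aged western-diet hearts and at 2.08, 2.09, 2.79 and 2.55 in aged hearts. Its values were 1.83, 3.09, 2.16 and 1.57 in adult western-diet hearts and 1.02, 0.958 and 1.15 in C57 hearts. All Hap-I values of Ppargc1b, a coactivator related to PGC-1 alpha, lay above those of the C57 hearts. It rose in aged western-diet hearts (log2 fold change 1.07 ± 0.15 SE, limma adjusted p = 0.00041), in aged hearts (log2 fold change 0.72 ± 0.15 SE, limma adjusted p = 0.0108) and in adult western-diet hearts (log2 fold change 0.61 ± 0.15 SE, limma adjusted p = 0.0427), each relative to C57. Esrrg, an estrogen-related receptor (log2 fold change 0.63 ± 0.13 SE, limma adjusted p = 0.00397), Gabpa, an ETS factor (log2 fold change 0.56 ± 0.12 SE, limma adjusted p = 0.0041), and Ppara, a fatty acid receptor (log2 fold change 1.56 ± 0.33 SE, limma adjusted p = 0.0048), rose in aged western-diet hearts and in aged hearts relative to C57.

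Of 25 other mitochondrial transport genes tested, 3 were lower in aged western-diet than in C57 hearts and 3 in aged than in C57 hearts, with median log2 fold changes of -0.10 and -0.070. Each count is 12% of the list, beside 9.57% and 4.06% of all genes called lower. They were Vdac3, Mpc2 and Ucp2 in aged western-diet hearts and Ucp2, Mpc2 and Sfxn4 in aged hearts. Mpc2, a subunit of the pyruvate carrier, fell in aged western-diet hearts (log2 fold change -0.58 ± 0.16 SE, limma adjusted p = 0.0179) and in aged hearts (log2 fold change -0.57 ± 0.17 SE, limma adjusted p = 0.0372). The uncoupling protein relative Ucp2 is made in many tissues. Its scaled TPM were 6.75, 7.17, 7.03, 11.5 and 6.79 in aged western-diet hearts, 4.84, 5.68, 12.1 and 5.47 in aged hearts, 9.94, 11.9, 10.7 and 21.1 in adult western-diet hearts and 18.7, 10.03 and 17.5 in C57 hearts. C57 replicate 2 was the lowest C57 heart, and aged western-diet replicate 4 and aged replicate 3 lay above it while the others of both groups lay below all C57 hearts. Ucp2 fell in aged western-diet hearts (log2 fold change -0.87 ± 0.29 SE, limma adjusted p = 0.04) and in aged hearts (log2 fold change -1.07 ± 0.30 SE, limma adjusted p = 0.0327) relative to C57. Ucp1, the uncoupling protein of brown fat, lay at 0 to 8.85 scaled TPM over the 16 hearts and was not called. The uncoupling protein Ucp3, which is induced when fatty acids rise, differed within the Hap-I groups. For Ucp3, aged western-diet hearts held 13.4, 13.8, 18.9, 25.4 and 12.2 scaled TPM and aged hearts 10.6, 10.7, 8.41 and 9.39. Adult western-diet hearts held 50.1, 43.2, 33.4 and 27.4 of Ucp3 and C57 hearts 10.5, 23.95 and 9.42. Adult western-diet hearts lay above every other heart, and C57 replicate 2 stood above the other C57 hearts. Ucp3 was lower in aged western-diet than in adult western-diet hearts (log2 fold change -1.17 ± 0.25 SE, limma adjusted p = 0.0261) and in aged than in adult western-diet hearts (log2 fold change -1.84 ± 0.27 SE, limma adjusted p = 0.00347), and rose in adult western-diet relative to C57 hearts (log2 fold change 1.42 ± 0.29 SE, limma adjusted p = 0.0161).

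The enzymes that work with the ADP/ATP and phosphate carriers were lower against C57 where they were called. Of 9 tested, 4 fell in aged western-diet hearts, 1 in aged hearts and 1 in adult western-diet hearts, and the median log2 fold change was -0.31, -0.12 and -0.24 in these groups. The counts are 44.4%, 11.1% and 11.1% of the list, beside 9.57%, 4.06% and 1.5% of all genes called lower, and the single gene in aged and in adult western-diet hearts was Atp5b. Atp5b, the catalytic subunit of ATP synthase, fell in aged western-diet hearts (log2 fold change -0.89 ± 0.12 SE, limma adjusted p = 0.000328), in aged hearts (log2 fold change -0.56 ± 0.12 SE, limma adjusted p = 0.0116) and in adult western-diet hearts (log2 fold change -0.51 ± 0.12 SE, limma adjusted p = 0.0338). Ckmt2, the mitochondrial creatine kinase, fell in aged western-diet hearts (log2 fold change -0.52 ± 0.12 SE, limma adjusted p = 0.00764). Of 8 cardiomyocyte markers, 2 were called there, both lower. They were Tnni3 (log2 fold change -0.74 ± 0.15 SE, limma adjusted p = 0.00314) and Tnnt2 (log2 fold change -0.39 ± 0.12 SE, limma adjusted p = 0.0294), and the median of the 8 was -0.34. The 2 make up 25% of these markers, beside 9.57% of all genes called lower. The others were not called. Myh6 lay at 380.1 to 1282 scaled TPM in aged western-diet hearts and 585 to 774 in C57 hearts. Myl2 lay at 12883 to 18179 and 16945 to 19820 in the same groups, and Ryr2 at 33.6 to 72.9 and 35.97 to 44.5. These 8 markers summed to 36488 to 43313 scaled TPM in aged western-diet hearts and 47585 to 52224 in C57 hearts, and their part in these results was not tested. Among 9 enzymes of the malate-aspartate shuttle and glutamate use, Mdh2 (log2 fold change -0.50 ± 0.10 SE, limma adjusted p = 0.00285) and Got2 (log2 fold change -0.40 ± 0.13 SE, limma adjusted p = 0.0346) fell in aged western-diet hearts relative to C57 and none rose. These 2 are 22.2% of the list, beside 9.57% of all genes called lower. None of the 9 was called in aged western-diet against aged hearts or in aged against adult western-diet hearts, beside 0.166% and 2.14% of all genes. In the first, 3 had an unadjusted limma p under 0.05, as did 15.9% of all genes, and the median log2 fold change was -0.21. In the second, 1 did, beside 21.5% of all genes, and the median was 0.20.

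Of 7 genes of the carnitine shuttle, Cpt2, the inner-membrane carnitine transferase, fell in aged western-diet hearts (log2 fold change -0.51 ± 0.13 SE, limma adjusted p = 0.0116) and in aged hearts (log2 fold change -0.51 ± 0.14 SE, limma adjusted p = 0.0263) relative to C57. This is 14.3% of the list in each, beside 9.57% and 4.06% of all genes called lower. Over the Hap-I groups together Cpt2 was called lower and Acsl1, of the same list, higher. Each is 14.3% of the list, beside 6.31% of all genes called lower and 9.42% called higher. Of 10 iron and heme genes, the transferrin receptor Tfrc was called in each of the 3 Hap-I groups against C57. Genes called higher made up 10% of the list in aged western-diet, 20% in aged and 10% in adult western-diet hearts. Over all genes these shares were 12.3%, 7.18% and 1.95%. Tfrc had 33.1, 8.09, 5.02, 9.82 and 14.1 scaled TPM in the aged western-diet hearts and 15.6, 19.2, 16.99 and 19.4 in the aged hearts. It had 18.4, 19.2, 12.3 and 13.4 in the adult western-diet hearts, against 4.21, 5.31 and 4.28 in the C57 hearts. Aged western-diet replicate 1 was the highest heart and replicate 3 of that group fell among the C57 hearts, while the aged and adult western-diet hearts lay above all C57 hearts. Tfrc rose, relative to C57, in aged western-diet hearts (log2 fold change 1.16 ± 0.37 SE, limma adjusted p = 0.0358), in aged hearts (log2 fold change 1.75 ± 0.39 SE, limma adjusted p = 0.0126) and in adult western-diet hearts (log2 fold change 1.57 ± 0.39 SE, limma adjusted p = 0.0388). Alas1, the first enzyme of heme synthesis, rose in aged relative to C57 hearts (log2 fold change 0.62 ± 0.16 SE, limma adjusted p = 0.0227). In aged western-diet against C57 hearts the median log2 fold change was -0.033 over the malate-aspartate genes, 0.014 over the carnitine genes and 0.014 over the iron and heme genes.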

How the data were processed

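Poly(A) RNA of 16 mouse hearts was sequenced from strand-preserving TruSeq libraries, per the labels' protocols. The authors deposited 1 table of TPM per gene, per the file headers; kallisto, DESeq2 and GRCm38 were used per the submitters' processing notes, with versions not given in the sources used here. kallisto divides reads that match several transcripts by an estimate, so genes that share 31-base words with others are less certain. The columns summed to between 942090 and 959772 TPM, and the depth is unknown.

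Members and gene lists were chosen with earlier results of these data known. Of the 37 members, 1 enters the counts and medians but is not reported here by name. Genes reaching 1 TPM in 3 or more libraries were kept, divided by median-of-ratios size factors and fitted as log2(scaled TPM + 1) with limma 3.58.1 (R 4.3.3; 1 mean per group, all 16 libraries, variance trend). Fold changes are on that log2 scale, with a pseudocount of 1, and so understate changes of low genes. P-values are two-sided and adjusted by Benjamini-Hochberg over 11415 genes within each comparison. They set a difference in means against the spread between these animals within groups, pooled over the 4 groups and moderated across genes. The fit was checked on simulated data, drawn as independent normal values for each gene. That check held no differences between libraries shared across genes, such as those of scaling, Y-linked absence or atrial markers. Named with values in every library are members called in any comparison or by the F test and the 10 of highest mean level. Alternatives were no scaling, quantile normalization, scaling without mitochondrial transcripts, pseudocounts of 0.1 and 0.5, other filters, variance settings and thresholds, terms for Y-linked absence and atrial markers, a transcript length correction, subsets of libraries, and leaving out each library. Motifs were searched on both strands of 32851 RefSeq promoter windows (GRCm38.p6); gene positions are from GENCODE M21. The human transgene was not analysed here.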

Additional observations from a re-analysis of the deposited data

Results flagged for a closer look

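A group of 4 or 5 hearts was examined for a single value far from the rest, in 63 sets of a named member and a group (C57, with 3 hearts, was not examined). Chance gives about 1 such value in 20 sets, and 3 were found, all in the aged hearts. Slc25a22 in aged replicate 1 was 9.92 scaled TPM, while the other 3 aged hearts lay between 8.49 and 8.73. Slc25a36 in aged replicate 2 was 8.12 scaled TPM, below the others at 8.96 to 9.03. Slc25a37 in aged replicate 2 was 2.04 scaled TPM, below the others at 2.52 to 2.61. With aged replicate 1 left out, the call of Slc25a22 in aged western-diet against aged hearts was lost.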

How the results depend on the processing

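No paired analysis was possible because replicate numbers were given in accession order and pair no animals. None of 854 alternative values of called members reversed; 626 kept their call and 228 lost it. Counts of called members follow in 1 order: aged western-diet against aged, against adult western-diet, aged against adult western-diet, aged against C57, adult western-diet against C57, aged western-diet against C57, all Hap-I against C57, and the F test. They were 1, 0, 1, 1, 5, 9, 9 and 10 as reported. Without scaling they were 0, 0, 0, 0, 1, 1, 1 and 2; unscaled, all genes had a median log2 fold change of -0.16, 0.11, 0.27, 0.13, -0.13, -0.026 and -0.0089 in the 7 comparisons. Over all genes the share called in adult western-diet, aged western-diet and all Hap-I against C57 hearts and by the F test was 3.45%, 21.9%, 15.7% and 18.3% as reported, 1.03%, 5.38%, 3.36% and 5.1% without scaling, 1.22%, 12.2%, 10.1% and 12% with a Y-linked term and 0.876%, 5.84%, 4.93% and 6.28% with an atrial term. Without a filter the counts of members were 0, 0, 1, 1, 3, 7, 7 and 6. A Y-linked term gave 0, 0, 1, 1, 1, 6, 5 and 5, and the 11 libraries with Y-linked transcripts 0, 0, 0, 1, 0, 2, 2 and 1. An atrial term gave 0, 0, 1, 1, 2, 4, 2 and 4, and the 10 libraries low in atrial markers (with 1 C57 heart, assumed to vary like the other groups) 0, 0, 1, 0, 0, 0, 0 and 0. A length correction gave 1, 1, 2, 3, 4, 12, 6 and 11, and with a Y-linked term 0, 0, 1, 3, 1, 6, 5 and 5. Fitting only the groups compared gave 1, 0, 1, 4, 1, 5 and 9. An adjusted p under 0.01 gave 0, 0, 1, 0, 1, 5, 2 and 3. No variance trend gave 1 in the second comparison, quantile normalization 2 in the third, and a pseudocount of 0.1 or a filter at 5 TPM 2 in the fourth. Leaving out 1 library gave 0 to 3, 0 to 2, 1 to 3, 1 to 2, 1 to 6, 5 to 12, 2 to 10 and 5 to 11. The fits on the 10 libraries low in atrial markers and with both corrections were added after seeing the data. The causes were not tested.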
